A study of Mus musculus with 49 samples.

Results

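Imiquimod-inflamed skin that had received an antibody to the interleukin-36 receptor (anti-IL-36R) was set against skin given water, to find which genes still differed from uninflamed skin under the antibody. The libraries were taken by their titles: 7 of IMQ skin with anti-IL-36R and 3 of water skin with PBS, 10 of the 49 libraries of the series. Each library was RNA-seq of mouse skin of a model of DITRA, deficiency of the natural interleukin-36 receptor antagonist. Per the labels, animals of every group, water controls included, were of this model, on a background of 75% C57BL/6NTac and 25% 129S6/SvEvTac. The antibody group received imiquimod (IMQ) and an antibody described as directed to human IL-36R. A further 6 libraries of IMQ skin with PBS and 7 of IMQ skin with an antibody to mouse IL-12p40 gave the values printed alongside, and water skin with PBS was the uninflamed group. The labels name neither the alleles of the model nor the age, sex, dose or day of sampling, and they do not say whether each library is a separate mouse, so p-values measure the spread between these libraries, which may be technical.

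Interleukin-36 cytokines are made by keratinocytes and myeloid cells, bind a receptor of Il1rl2 and Il1rap and signal through Myd88 to NF-kB. Il1f5 encodes the antagonist that occupies the same receptor, and its loss in people causes pustular skin disease. Imiquimod is a Toll-like receptor 7 agonist whose application to mouse skin gives thickened, scaling epidermis with neutrophils, and it acts on receptors in endosomes of myeloid cells that also need Myd88. Skin RNA mixes epidermis, hair follicles, sebaceous glands, dermis, fat, the thin muscle below it, vessels and immune cells.

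The 10 libraries held 14946321 to 19574785 expected counts each, the most abundant gene took 1.79% to 4.22% of them, and TMM scaling factors lay between 0.956 and 1.08; among the PBS libraries replicate 1 had a factor of 0.833. The basal keratinocyte keratin Krt5 stood at 5180 to 8210 CPM (median 6220) in anti-IL-36R skin, against 4910, 6300 and 4670 CPM in the 3 water libraries, and served as the check of the tissue label; CPM are expected counts scaled to a common library size. Libraries of one group did not look alike throughout. In a multidimensional scaling the anti-IL-36R libraries spread from -0.95 (replicate 7) to 0.915 (replicate 4) on the first axis, between PBS libraries at -1.43 to -1.01 and water libraries at 1.17 to 1.98. Water replicate 3 stood apart in hair follicle genes, with a mean log2 CPM -1.58 from the water mean, against 0.90 and 0.69 in water replicates 1 and 2. Sample numbers of the water libraries ran on from those of PBS replicates 1 to 3, and those of the anti-IL-36R libraries with those of PBS replicates 4 to 6. Between PBS replicates 4 to 6 and 1 to 3, edgeR called 0 genes and 686 had an unadjusted p under 0.05; no other tool was run on that contrast, and what the runs stand for is not given.

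Of 15345 genes tested, 2003 differed between anti-IL-36R and water skin at a Benjamini-Hochberg adjusted p under 0.05 in edgeR's quasi-likelihood test (13.1%). Among them 910 were higher (5.93%) and 1093 lower (7.12%) under the antibody. In this report a gene rose, fell or was called if it passed that test, and changes are log2 fold changes ± SE. Most called changes were small: their median absolute log2 fold change was 0.731, and 686 reached 2-fold, 256 higher and 430 lower. Of the 13342 genes not called, 10708 had a 95% interval that lay within 2-fold in either direction, and 2634 had a wider one. The 7 anti-IL-36R libraries lay entirely above the 3 water libraries for 936 genes (6.1%) and entirely below for 1060 (6.91%). IMQ skin with PBS, set against the same water libraries, differed in 5046 genes (32.9%), 2377 higher (15.5%) and 2669 lower (17.4%). Anti-IL-36R skin differed from PBS skin in 628 genes (4.09%), 492 higher (3.21%) and 136 lower (0.886%), and anti-IL-12p40 skin differed from water skin in 729 (4.75%), 369 higher (2.4%) and 360 lower (2.35%).

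The count of calls depended on single libraries and on the sample number runs. Without water replicate 1 it was 698, and without water replicate 3 it was 1248. With the number run as a term, in a fit without the anti-IL-12p40 libraries, 3 genes were called and 2467 had an unadjusted p under 0.05. In that fit the difference from water is carried by the PBS libraries of both runs. The 3 were Atp10a, Gzma and Cd300e. For the 1986 called genes that this fit could test, chosen by their calls in libraries that both fits share, the median absolute log2 fold change was 0.72 without and 0.71 with the run term, while the median SE was 0.188 without and 0.298 with it. Of the 3, Gzma is a member of the 37 gene lists counted in the next paragraphs, and no other member was called with the run term. List counts in those paragraphs stand beside shares over all genes of 5.93% higher and 7.12% lower under the antibody. With PBS these shares were 15.5% and 17.4%.

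**Figure D1:**
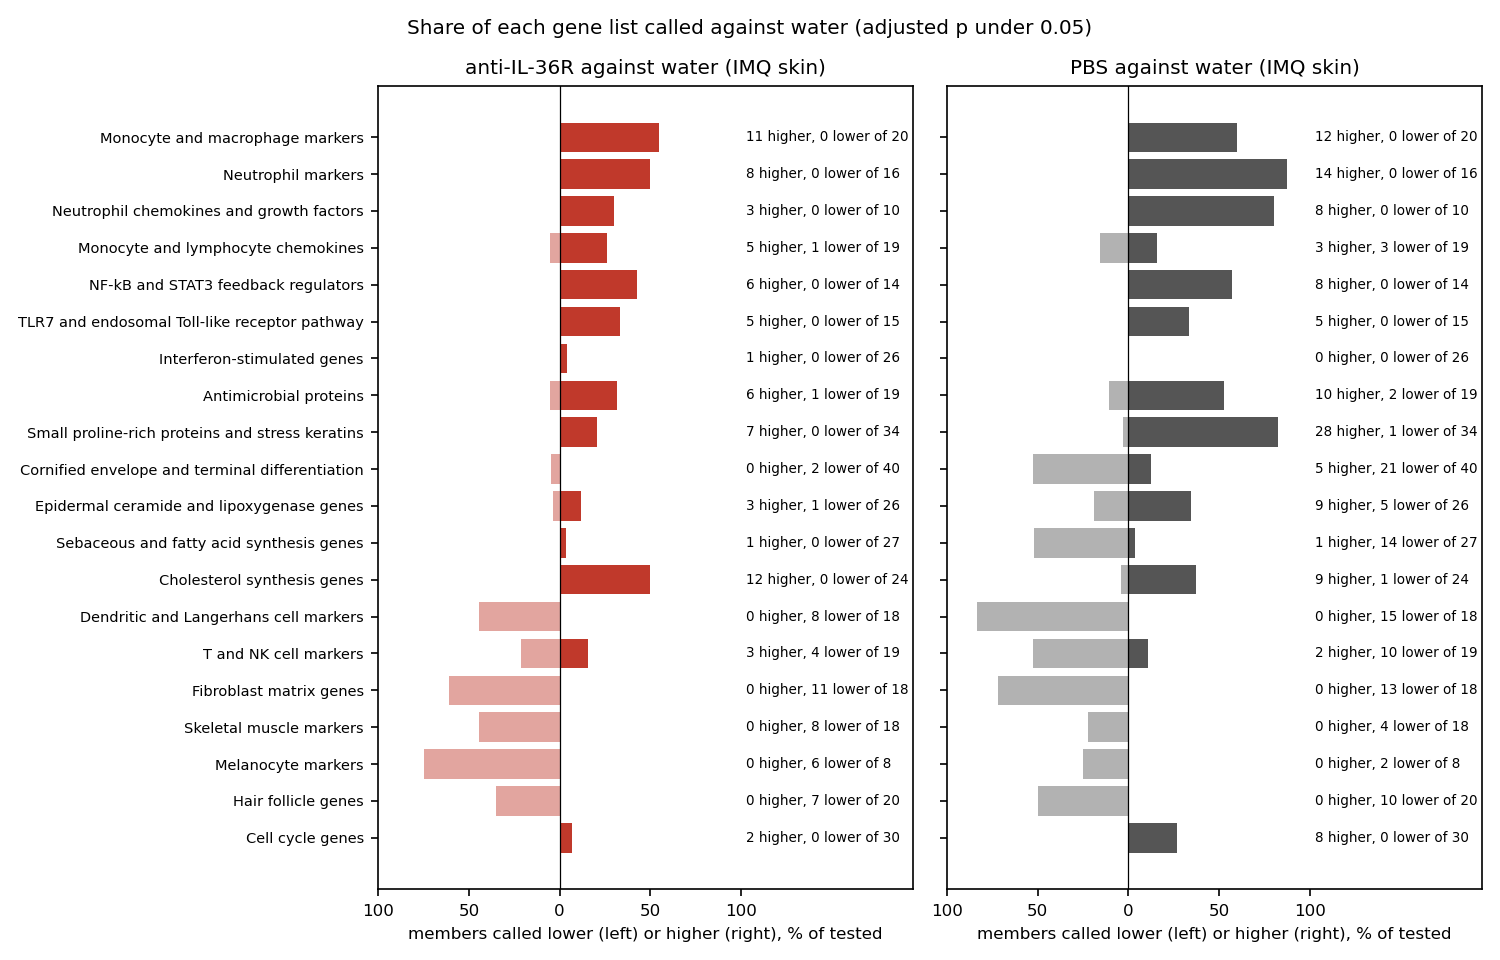
Share of the tested members of 20 gene lists called higher (right, full colour) or lower (left, pale) than water skin by edgeR, in IMQ skin with anti-IL-36R (left panel, red) and IMQ skin with PBS (right panel, grey), with the counts beside the bars. Over all genes 5.93% were higher and 7.12% lower under anti-IL-36R, against 15.5% and 17.4% with PBS; macrophage markers were called in nearly equal numbers (11 and 12 of 20), while small proline-rich and stress keratin genes were called higher in 7 and 28 of 34.

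Of 20 tested macrophage and monocyte markers 11 rose and 0 fell, where 5.93% of all genes rose, with a median change of 1.01 (all genes -0.005), and in IMQ skin with PBS 12 rose, with a median of 1.15. Between the antibody and PBS groups 0 of the 20 passed edgeR's test (3 at an unadjusted p under 0.05), with a median difference of 0.00; no other tool was run on this contrast. The summed level of the markers was 1780 to 2490 CPM in anti-IL-36R libraries, 1210 to 2650 CPM in PBS libraries and 918 to 1700 CPM in water libraries. In such bulk samples, more cells of a type and more RNA per cell cannot be told apart. Cd300e, an activating receptor of monocytes (Entrez gene ID 217306, chromosome 11, 115051917 to 115066676), measured 5.62 to 19.3 CPM (median 12.9) in anti-IL-36R skin, against 0.163, 0.0662 and 0.0563 CPM in water skin. Every antibody library lay far above all 3 water libraries, whose values rest on few reads. Its change was 6.97 ± 0.935 (adjusted p = 0.000295), and that of PBS skin against water 7.20 ± 0.938 (adjusted p = 6.99e-05). The activating immunoglobulin G receptor Fcgr4 (Entrez gene ID 246256, chromosome 1, 171018926 to 171029761) stood at 6.87 to 16 CPM (median 12.2), against 0.654, 0.397 and 1.63 CPM in water skin. The groups did not overlap. It rose by 3.73 ± 0.527 (adjusted p = 0.000411) under the antibody, and by 3.98 ± 0.535 (adjusted p = 8.28e-05) with PBS. Adgre1, the F4/80 antigen of mature mouse macrophages, rose, with 121 to 301 CPM (median 247), against 28.7, 32.9 and 53 CPM in water skin, a change of 2.57 ± 0.4 (adjusted p = 0.000696); PBS skin held 76.9 to 266 CPM (median 229). Anti-IL-36R and PBS libraries overlapped each other for it, and both groups were above water.

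Other genes, among them those of myeloid surface and secreted proteins, also rose against water. The integrin chain Itgam, shared by monocytes, macrophages and neutrophils, rose by 2.20 ± 0.399 (adjusted p = 0.0019), the membrane protein Ms4a7 by 1.15 ± 0.246 (adjusted p = 0.00543) and the complement chain C1qb by 1.15 ± 0.267 (adjusted p = 0.00865). The scavenger receptor Marco stood at 4.52 to 25.1 CPM (median 13.3) under the antibody, against 0.327, 0.331 and 0.958 CPM in water skin, and rose by 4.65 ± 0.955 (adjusted p = 0.00432). Chil3, a chitinase-like protein of alternatively activated macrophages and neutrophils, rose by 5.08 ± 1.26 (adjusted p = 0.012), with 6.33 to 52 CPM (median 13.4) under the antibody and 1.25, 0.198 and 0.563 CPM in water skin. Some Chil3 reads were shared with related genes, so its level is uncertain. Slc13a3, a sodium-coupled dicarboxylate transporter, was among the largest changes of the comparison, at 45.7 to 160 CPM (median 97.3) against 1.69, 1.26 and 3.15 CPM in water skin, a rise of 5.59 ± 1.08 (adjusted p = 0.00295). Fcrl5, an Fc receptor-like protein of B cells, had 0 counts in every water library and 3.54 to 17.4 CPM (median 5.48) under the antibody (adjusted p = 0.00162). Against a floor of 3 counts over the water group it was at least 129-fold higher. Marco, Slc13a3, Fcrl5 and Cd300e are not members of the macrophage and monocyte list. Scores of that list lay above all water libraries in each of the 7 antibody libraries, 1.15 to 1.65 above the water mean on the log2 scale. The list's median was 0.63 with the run term. The count of rising members was 5 to 11 when 1 library was left out, with 5 without water replicate 1 and 6 without water replicate 2. Of the 10 genes named in these paragraphs, 8 were called whichever library was left out (Cd300e, Fcrl5, Marco, Fcgr4, Adgre1, Itgam, Ms4a7 and Slc13a3). Of these 8, limma-voom, another test of the same libraries, did not call Marco and Slc13a3. The call ended without water replicate 1 for C1qb (adjusted p = 0.07) and without water replicate 3 for Chil3 (adjusted p = 0.0502).

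**Figure D2:**
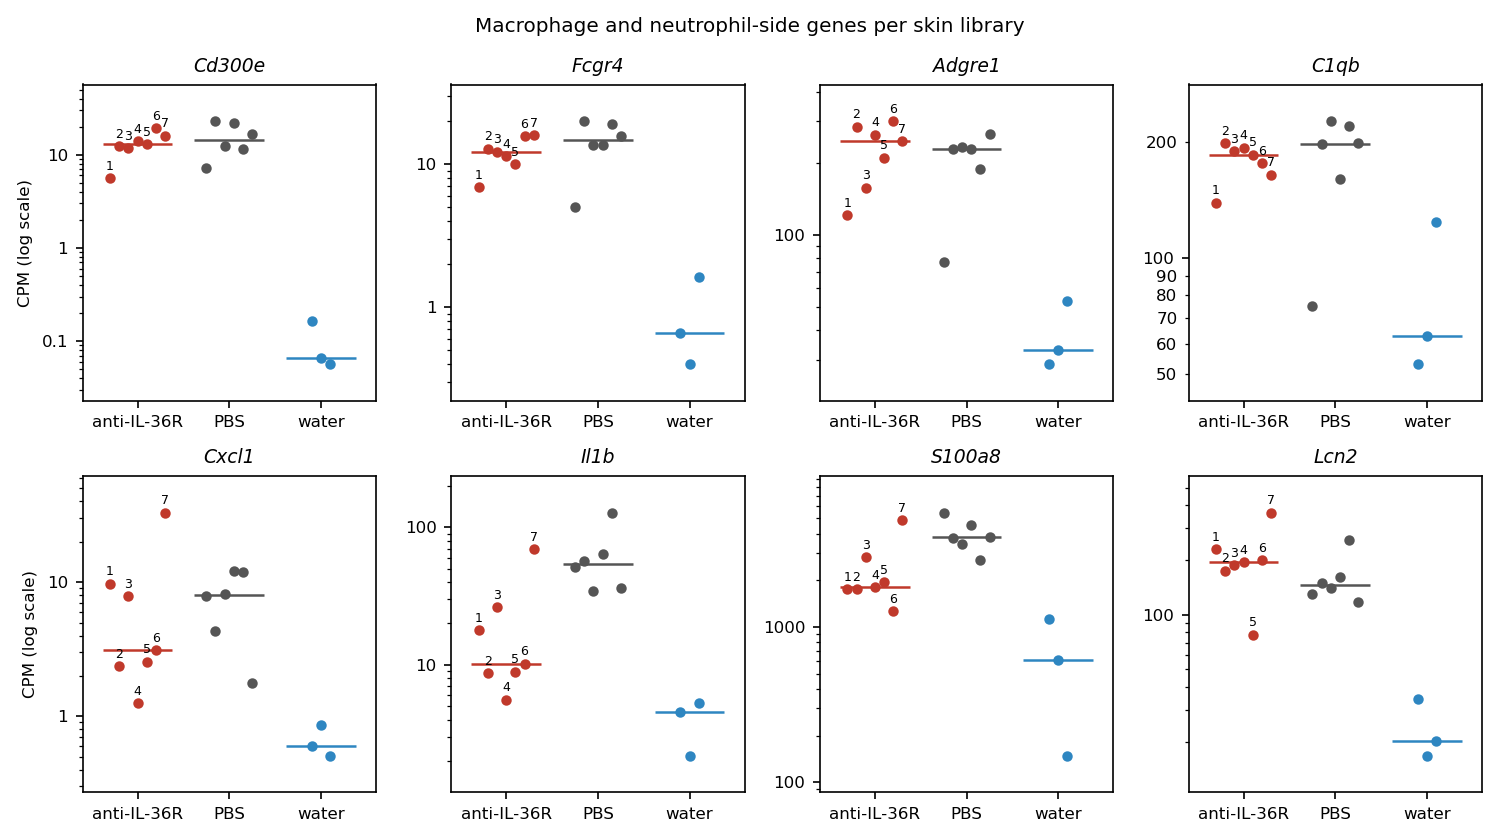
CPM on a log axis for 8 genes in each library of IMQ skin with anti-IL-36R (red, replicate numbers printed), IMQ skin with PBS (grey) and water skin (blue), with horizontal lines at the group medians. Cd300e, Fcgr4, Adgre1 and C1qb are high in all 7 antibody libraries, while Cxcl1 and Il1b are highest in replicate 7, at 33 and 69 CPM.

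Some neutrophil genes rose as well. Of 16 tested neutrophil markers 8 rose and 0 fell (median 2.11), against 14 in PBS skin (median 3.02), and edgeR called 0 between the antibody and PBS groups (7 at an unadjusted p under 0.05). The granule and lineage genes Ly6g, Mpo and Elane were too low to test, with 10, 18 and 6 counts summed over the 7 antibody libraries, 18, 13 and 2 over the 6 PBS libraries and 0, 5 and 1 over the 3 water libraries. Fpr1, a receptor for bacterial formyl peptides on neutrophils and monocytes, stood at 3.69 to 16.3 CPM (median 5.25), against 0.163, 0 and 0.0563 CPM in water skin, and rose by 6.38 ± 1.37 (adjusted p = 0.00557). Its relative Fpr2 rose by 4.06 ± 0.865 (adjusted p = 0.00535), with 4.34 to 17.6 CPM (median 5.67) against 0.545, 0.132 and 0.789 CPM in water skin. Both receptors were above every water library in each antibody library, and they share some reads. Csf3r, the receptor of the neutrophil growth factor Csf3, rose by 1.81 ± 0.5 (adjusted p = 0.0212). S100a8, the smaller chain of calprotectin, which neutrophils and stressed keratinocytes both make, measured 1270 to 4870 CPM (median 1800) under the antibody, against 1120, 612 and 148 CPM in water skin. Its lowest antibody library was close to the highest water library, and water replicate 3 was far below the other water libraries. It rose by 1.89 ± 0.519 (adjusted p = 0.0205) and its partner S100a9 by 1.92 ± 0.538 (adjusted p = 0.0228), while PBS skin stood 2.66 and 2.97 above water.

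Among 10 chemokines, receptors and growth factors that recruit neutrophils, 3 rose (Cxcl1, Ppbp and Cxcr2), against 8 in PBS skin, although the medians were large in both (2.71 and 3.85). The list score was 3.68, 2.67 and 2.34 above the water mean in antibody replicates 7, 3 and 1, and 0.38 to 0.89 in the other 4. PBS libraries scored 2.55 to 4.36, so antibody replicates 7 and 3 lay within the PBS range, replicate 1 just below it and the other 4 close to water. Without replicate 7 the median over the list was 1.83. Cxcl1, a ligand of Cxcr2, measured 1.25 to 33 CPM (median 3.11) under the antibody, 1.77 to 12.1 CPM (median 8.02) with PBS and 0.599, 0.86 and 0.507 CPM in water skin, a change of 3.71 ± 0.993 (adjusted p = 0.0183). No antibody library overlapped water. Replicate 7 lay above the PBS range, replicate 4 below it at 1.25 CPM and the others within it. Cxcl2 spanned 0.171 to 22 CPM (median 0.771), against 0.872, 0.0662 and 0 CPM in water skin, and was not called (4.0 ± 1.58, adjusted p = 0.0929), nor was Cxcl3 (5.33 ± 1.81, adjusted p = 0.0547), which spanned 0.057 to 7.82 CPM (median 0.446) against 0.0545, 0.0662 and 0 CPM. Cxcl3 was the member called lower under the antibody than with PBS, with a difference of -2.63 ± 0.729 (adjusted p = 0.0433). The platelet chemokine Ppbp rose by 1.88 ± 0.602 (adjusted p = 0.0421) and the receptor Cxcr2 by 0.62 ± 0.196 (adjusted p = 0.0409), both with libraries overlapping water. Csf3 (3.03 ± 1.51, adjusted p = 0.181), Csf2 (0.52 ± 0.769, adjusted p = 0.684), Ccl3 (1.96 ± 0.953, adjusted p = 0.17) and Ccl4 (2.38 ± 1.08, adjusted p = 0.144) were not called. Cxcl5 had 0 counts in water skin and 0 to 6.42 CPM (median 0.509) under the antibody, and was not called either (adjusted p = 0.137).

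The start sites of Cxcl1, Cxcl2 and Cxcl3, which are neighbouring related genes, are shown because these chemokines carry the split between antibody libraries. The 120 bases before each RefSeq start (GRCm38.p6) hold GGGAATTTCC (capitals), a form of the word GGGA, any base and TTTCC, the type of site that NF-kB dimers bind.
Cxcl1, chr5:90891125-90891244 (plus strand): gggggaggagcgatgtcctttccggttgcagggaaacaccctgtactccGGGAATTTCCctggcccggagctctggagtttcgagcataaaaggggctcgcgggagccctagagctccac
Cxcl2, chr5:90903779-90903898 (plus strand): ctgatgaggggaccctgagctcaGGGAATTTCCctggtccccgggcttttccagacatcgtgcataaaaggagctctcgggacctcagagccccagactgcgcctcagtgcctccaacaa
Cxcl3, chr5:90785981-90786100 (plus strand): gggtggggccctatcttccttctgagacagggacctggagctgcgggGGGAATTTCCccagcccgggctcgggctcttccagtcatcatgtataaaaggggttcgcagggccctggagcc

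The match begins at -71, -97 and -73 from the start of Cxcl1, Cxcl2 and Cxcl3. Searched on both strands over 250 bases before the start, that word was found in 3 of the 7 members of the chemokine list with an entry, against 112 of 27025 genes (0.414%). A match describes these letters and does not show that a factor was bound. With the run term the medians were 2.51 for the chemokine list and 1.70 for neutrophil markers. When 1 library was left out, 0 to 4 chemokine members rose, with 0 without water replicate 1, 0 without water replicate 3, 1 without antibody replicate 3 and 1 without antibody replicate 7; of the neutrophil markers 4 to 9 rose, with 5 without water replicate 1, 4 without water replicate 2 and 4 without water replicate 3. The calls of Fpr1 and Fpr2 held in every such fit, but limma-voom, another test of the same libraries, called neither. Other calls ended without water replicate 1 for Csf3r, Cxcl1, Ppbp and Cxcr2 (adjusted p 0.0775 to 0.141), without water replicate 2 for Csf3r, S100a8, S100a9 and Ppbp (adjusted p 0.052 to 0.114) and without water replicate 3 for S100a8, S100a9, Cxcl1, Ppbp and Cxcr2 (adjusted p 0.0548 to 0.224). Fits in which antibody replicate 2, 3, 5, 6 or 7 was left out did so for 1 or more of Ppbp and Cxcr2 (adjusted p 0.0509 to 0.0776). Dropping antibody replicate 7 ended the calls of Ppbp and Cxcr2, while Cxcl1 kept its call without it.

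**Figure D3:**
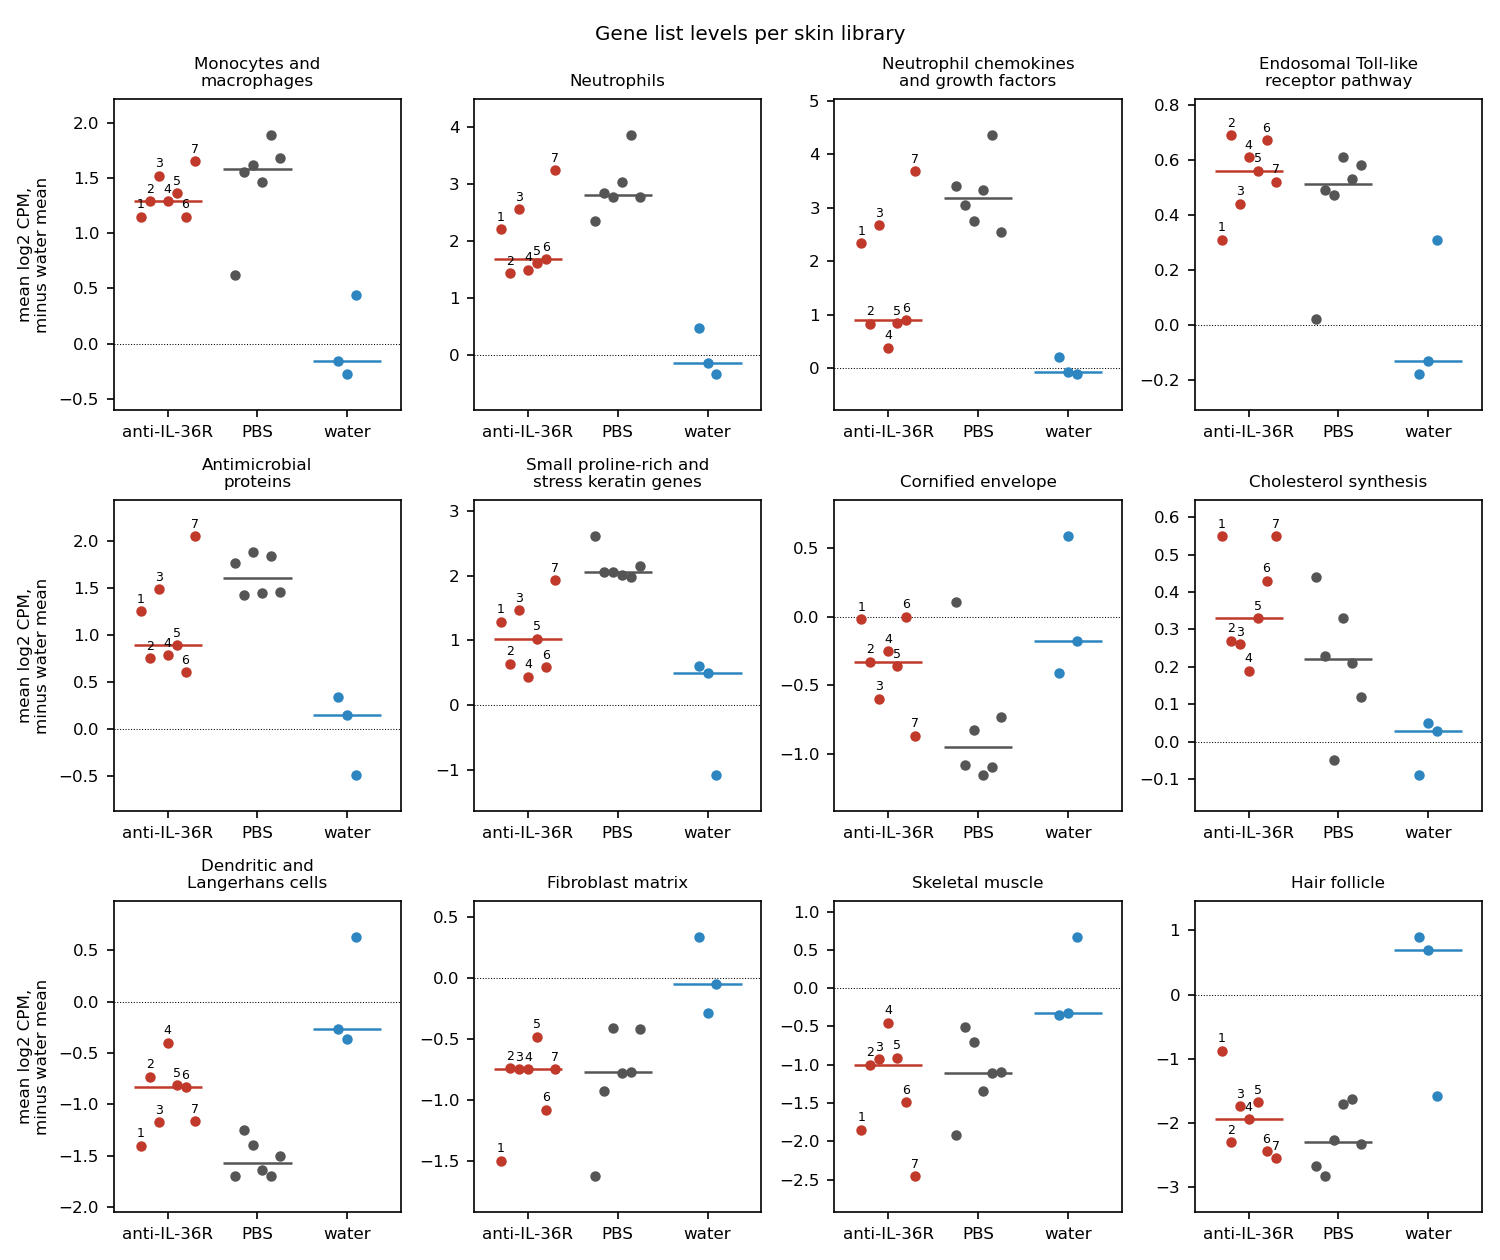
Mean log2 CPM of 12 gene lists in each skin library, minus the mean of the 3 water libraries, for IMQ skin with anti-IL-36R (red, replicate numbers printed), IMQ skin with PBS (grey) and water skin (blue); horizontal lines are group medians. Macrophage scores are even over the 7 antibody libraries (1.15 to 1.65), neutrophil chemokine scores spread from 0.38 to 3.68, and water replicate 3 is low for hair follicle genes.

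Chemokines for monocytes and lymphocytes and the cytokine genes gave a mixed picture. Of 19 tested chemokines of this kind 5 rose and 1 fell under the antibody, against 3 and 3 with PBS. The B-cell chemokine Cxcl13 rose most, with 14.8 to 130 CPM (median 43.8), against 0.599, 0.728 and 4.45 CPM in water skin (4.59 ± 1.03, adjusted p = 0.00726), and stood 4.58 above water with PBS. The monocyte chemokines Ccl2 and Ccl7 rose by 2.54 ± 0.627 (adjusted p = 0.012) and 2.28 ± 0.665 (adjusted p = 0.0275), the T-cell chemokine Ccl5 by 1.81 ± 0.393 (adjusted p = 0.0059) and the membrane-bound chemokine Cxcl16 by 0.46 ± 0.141 (adjusted p = 0.0343). For each of these 5 genes every antibody library exceeded every water library. Ccl27a, a chemokine that keratinocytes make to hold T cells in skin, fell, with 4.6 to 11.4 CPM (median 6.5), against 19.1, 29.4 and 29.2 CPM in water skin. The groups did not overlap. Its change was -1.82 ± 0.238 (adjusted p = 0.000272) under the antibody and -2.54 ± 0.251 (adjusted p = 8.63e-06) with PBS; some of its reads fit more than one gene.

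Of the interleukin-36 genes, the receptor chain Il1rl2 measured 17.8 to 25.5 CPM (median 21.5) under the antibody, 18.5 to 29.1 CPM (median 21.1) with PBS and 17.5, 20.1 and 19.9 CPM in water skin, and was not called (0.17 ± 0.115, adjusted p = 0.332). The shared chain Il1rap rose by 0.50 ± 0.16 (adjusted p = 0.0411), with no overlap between libraries. The antagonist Il1f5 measured 453 to 648 CPM (median 563), against 439, 788 and 373 CPM in water skin (0.01 ± 0.259, adjusted p = 0.987), and the agonist Il1f9 1.36 to 3.48 CPM (median 2.39) against 1.96, 2.58 and 3.32 CPM (-0.05 ± 0.292, adjusted p = 0.921). Neither was called and both overlapped water. Some Il1f9 reads were shared with other genes. The labels describe every group as a model of deficiency of this antagonist, and they name no alleles. Whether the reads of Il1f5, or of other genes of this system, come from intact or altered genes was not tested. These levels therefore do not show that working antagonist was made. The agonist Il1f6 had 0 counts in all libraries of the 3 groups, and Il1f8 had 46, 24 and 13 counts summed over the antibody, PBS and water libraries, too few to test. Elsewhere in the interleukin-1 family, 2 of 13 genes rose and 1 fell. Il33, an alarmin of epithelial nuclei, rose, with 42.7 to 298 CPM (median 111), against 34.6, 40 and 38.3 CPM in water skin (1.96 ± 0.508, adjusted p = 0.0156), and Il1b rose, with 5.59 to 69 CPM (median 10.2) against 4.58, 2.18 and 5.24 CPM (2.38 ± 0.73, adjusted p = 0.0354). Both had no overlap with water, and for Il1b replicate 7 was far above the rest. Il18r1, a receptor chain for interleukin-18, fell by 0.54 on the log2 scale (adjusted p = 0.0086).

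On the interleukin-23 and interleukin-17 axis 2 of 17 tested genes rose and 1 fell, against 5 and 4 with PBS. Over all genes 5.93% rose and 7.12% fell under the antibody, against 15.5% and 17.4% with PBS. The share of the axis that fell under the antibody was near that of all genes. Il17f (Entrez gene ID 257630, chromosome 1, 20777146 to 20785274) measured 1.21 to 9.02 CPM (median 2.15) under the antibody, 2.03 to 8.41 CPM (median 3.67) with PBS and 0.49, 0.397 and 0.338 CPM in water skin. All antibody libraries were above water, with replicate 7 highest. It rose by 2.84 ± 0.644 (adjusted p = 0.00744), and by 2.65 ± 0.448 (adjusted p = 0.0182) against anti-IL-12p40 skin, where it was not called against water (0.19 ± 0.68, adjusted p = 0.894). The epithelial cytokine Il17c rose by 2.12 ± 0.662 (adjusted p = 0.0383), and Ccr6, the chemokine receptor of interleukin-17-producing T cells, fell by 0.86 on the log2 scale (adjusted p = 0.0418). Il17a (1.22 ± 0.773, adjusted p = 0.299), Il22 (2.21 ± 1.22, adjusted p = 0.228), Il23a (1.89 ± 0.799, adjusted p = 0.115), Il12b (-0.94 ± 0.683, adjusted p = 0.369) and Il23r (-0.62 ± 0.36, adjusted p = 0.25) were not called. Il22 lay at a median of 0.119 CPM under the antibody, near the level of a single read, with 3.39 CPM in replicate 7. The receptor chains Il12rb1 (0.00, adjusted p = 0.997), Il12rb2 (-1.36, adjusted p = 0.0783), Il17ra (0.15, adjusted p = 0.416), Il17rb (-0.34, adjusted p = 0.409), Il17rc (0.15, adjusted p = 0.416), Il17re (0.16, adjusted p = 0.329) and Il22ra1 (0.03, adjusted p = 0.939) and the soluble receptor Il22ra2 (0.46, adjusted p = 0.571) were not called either. In the interleukin-6, interleukin-10 and interleukin-20 families 2 of 14 rose: Osmr, the oncostatin M receptor, by 0.82 ± 0.203 (adjusted p = 0.0121) and Ebi3, a subunit of interleukin-12 family cytokines, by 1.31 ± 0.36 (adjusted p = 0.0207). Il6 (2.68 ± 0.93, adjusted p = 0.0587), Il19 (2.33 ± 0.924, adjusted p = 0.0934), Il24 (2.97 ± 1.07, adjusted p = 0.0667) and Tnf (1.15 ± 0.478, adjusted p = 0.109) were not called, and in Il6, Il19 and Tnf replicate 7 was highest. The rising monocyte and lymphocyte chemokines numbered 1 without water replicate 1 and 3 without antibody replicate 7. Rising genes of the interleukin-6 group numbered 0 without water replicate 1, 1 without water replicate 3, 4 without antibody replicate 6 and 5 without antibody replicate 4. Rises on the interleukin-17 axis numbered 1 without water replicate 1, 2 or 3 or antibody replicate 1 or 7. Falls on it numbered 0 without water replicate 1 or 3 or antibody replicate 1, 2, 3 or 5 and 2 without antibody replicate 4 or 6. Of the 15 chemokine, cytokine and receptor genes called here, Ccl5, Ccl27a and Il17f kept the call without any single library. Il17f was not called by limma-voom. Omission ended calls without water replicate 1 for Cxcl13, Ccl2, Ccl7, Cxcl16, Il1rap, Il33, Il1b, Il17c, Ccr6, Osmr and Ebi3 (adjusted p 0.0506 to 0.213), without water replicate 2 for Ccl7, Il1b and Il17c (adjusted p 0.0581 to 0.103) and without water replicate 3 for Ccl7, Il1rap, Il33, Il1b, Il18r1, Il17c, Ccr6 and Osmr (adjusted p 0.0512 to 0.379). Fits from which antibody replicate 1, 2, 3, 5, 6 or 7 was left out did so for 1 or more of Il1rap, Il17c, Ccr6, Il1b, Ccl7 and Cxcl16 (adjusted p 0.0516 to 0.0754).

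Some signalling genes downstream of these receptors rose. Of 14 feedback regulators of NF-kB and STAT3 signalling 6 rose and 0 fell under the antibody, against 8 with PBS. Nfkbiz, an NF-kB cofactor for interleukin-17 and interleukin-36 target genes, measured 94.8 to 172 CPM (median 99), against 69.7, 69.1 and 53.2 CPM in water skin, and rose by 0.84 ± 0.224 (adjusted p = 0.0183). Socs3, the inhibitor induced by STAT3, measured 34.2 to 114 CPM (median 47.2) against 23.7, 25 and 24.1 CPM and rose by 1.28 ± 0.354 (adjusted p = 0.0214). Neither gene's antibody libraries overlapped water. The ribonuclease Zc3h12a (0.84 ± 0.248), the apoptosis inhibitor Birc3 (0.54 ± 0.164), Stat3 itself (0.41 ± 0.124) and the NF-kB partner Bcl3 (0.87 ± 0.286) rose as well, with adjusted p between 0.0307 and 0.0466. In the endosomal Toll-like receptor pathway 5 of 15 genes rose, against 5 with PBS. Tlr13, a sensor of bacterial ribosomal RNA, rose, with 13.8 to 18.7 CPM (median 16.9), against 4.14, 3.18 and 6.93 CPM in water skin (1.82 ± 0.289, adjusted p = 0.000807), and the adaptor Myd88 rose, with 54.6 to 81.8 CPM (median 69.1) against 44.1, 52.9 and 42.5 CPM (0.56 ± 0.121, adjusted p = 0.00585). Both were above water in every antibody library. Tlr7, the imiquimod receptor, rose by 1.01 ± 0.299 (adjusted p = 0.0295), its relative Tlr8 by 1.30 ± 0.312 (adjusted p = 0.0103) and the endosomal transporter Slc15a3 by 1.25 ± 0.401 (adjusted p = 0.0424). Of the interferon-stimulated genes 1 of 26 rose (5.93% of all genes rose), and of the other 25, 20 had intervals within 2-fold. Examples are Irf7 (0.63 ± 0.282, adjusted p = 0.137) and Oasl1 (0.70 ± 0.337, adjusted p = 0.165); in PBS skin edgeR called 0 of 26, with 1 at an unadjusted p under 0.05. The rising interferon-stimulated genes numbered 0 without water replicate 1 or 2 or antibody replicate 2 or 6 and 4 without water replicate 3. When 1 library was left out, 0 to 6 feedback regulators rose, with 0 without water replicate 1, 3 without water replicate 2, 0 without water replicate 3 and 2 without antibody replicate 7, and 2 to 7 Toll-like receptor genes, with 2 without water replicate 1 and 3 without water replicate 2. Calls of Tlr13 and Myd88 held throughout. Other calls ended without water replicate 1 for Nfkbiz, Socs3, Stat3, Birc3, Zc3h12a, Bcl3, Tlr7, Tlr8 and Slc15a3 (adjusted p 0.0558 to 0.174), without water replicate 2 for Socs3, Stat3, Birc3, Tlr7 and Slc15a3 (adjusted p 0.0505 to 0.101) and without water replicate 3 for Nfkbiz, Socs3, Stat3, Birc3, Zc3h12a and Bcl3 (adjusted p 0.0704 to 0.211). Fits from which antibody replicate 1, 3, 5, 6 or 7 was left out did so for 1 or more of Stat3, Bcl3, Slc15a3, Birc3 and Zc3h12a (adjusted p 0.05 to 0.0886).

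Some antimicrobial and keratinocyte stress genes were higher under the antibody than in water skin. In whole skin, RNA from the epidermis and from immune cells cannot be told apart. Of 19 tested antimicrobial genes 6 rose and 1 fell, against 10 and 2 with PBS; 1 was higher and 4 lower under the antibody than with PBS. Lcn2, the siderophore-binding lipocalin (Entrez gene ID 16819, chromosome 2, 32384637 to 32387739), measured 77.7 to 365 CPM (median 194) under the antibody, 118 to 259 CPM (median 145) with PBS and 34.3, 16.7 and 20.2 CPM in water skin. Antibody and PBS libraries covered the same levels, all above water. It rose by 3.10 ± 0.389 (adjusted p = 0.000272), and by 2.75 ± 0.385 (adjusted p = 0.000111) with PBS. The protease inhibitor Slpi rose by 1.78 ± 0.401 (adjusted p = 0.00735), the peptidoglycan receptor Pglyrp3 by 0.95 ± 0.253 (adjusted p = 0.0183) and the acute-phase protein Saa3 rose, with 56.4 to 650 CPM (median 127), against 28.6, 11.4 and 23.8 CPM in water skin (3.43 ± 0.951, adjusted p = 0.0214). Saa3 and Pglyrp3 share reads with relatives. Wfdc21, a whey acidic protein-type inhibitor, fell, with 3.52 to 8.53 CPM (median 5.27), against 13.8, 20.6 and 27.5 CPM in water skin (-1.79 ± 0.329, adjusted p = 0.00204), with a change of -1.79 ± 0.343 (adjusted p = 0.000939) with PBS.

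Of 34 small proline-rich and stress keratin genes, which keratinocytes switch on when the epidermis is injured, 7 rose under the antibody, against 28 with PBS, and 17 were lower under the antibody than with PBS. The medians against water were 0.99 and 1.84. Of the 27 members not called against water, 1 had an interval within 2-fold, so for most of them these libraries could not tell a residual rise from none. Krt17, a stress keratin (Entrez gene ID 16667, chromosome 11, 100256215 to 100261029), measured 1790 to 3300 CPM (median 2430), against 1010, 1350 and 973 CPM in water skin, without overlap. It rose by 1.17 ± 0.2 (adjusted p = 0.00118), and by 1.16 ± 0.203 (adjusted p = 0.00051) with PBS. The serpins Serpinb3a and Serpinb3b rose by 1.39 ± 0.386 (adjusted p = 0.0213) and 1.09 ± 0.261 (adjusted p = 0.0101). Sprr2d rose by 1.49 ± 0.403 (adjusted p = 0.0193) and Sprr2e by 1.71 ± 0.488 (adjusted p = 0.0248), and both were lower than with PBS, with differences of -1.08 ± 0.3 (adjusted p = 0.0454) and -1.52 ± 0.358 (adjusted p = 0.0187). Krt6a spanned 2630 to 12500 CPM (median 8070), against 3200, 3250 and 996 CPM in water skin, overlapping it, and rose by 1.69 ± 0.481 (adjusted p = 0.0241). Reads of these keratins, serpins and Sprr2 genes were in part shared between relatives, so single members are uncertain.

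Among 11 epidermal growth factor ligands and receptors 4 rose and 1 fell, the same numbers as with PBS. The ligands Tgfa (0.93 ± 0.263, adjusted p = 0.0236), Hbegf (1.72 ± 0.51, adjusted p = 0.0302), Areg (1.87 ± 0.586, adjusted p = 0.0387) and Nrg1 (2.12 ± 0.583, adjusted p = 0.021) rose. For Tgfa the antibody libraries, 67.9 to 182 CPM (median 85.6), did not overlap 45.8, 66.6 and 41.4 CPM in water skin, while those of Hbegf, Areg and Nrg1 did. Egf itself fell, with 1.36 to 3.06 CPM (median 1.96), against 4.19, 3.71 and 7.1 CPM in water skin, without overlap (-1.22 ± 0.239, adjusted p = 0.0032). Of 18 tight junction and adhesion genes 4 rose and 0 fell, against 5 and 8 with PBS; the gap junction protein Gjb2 rose by 1.52 ± 0.44 (adjusted p = 0.0268). Rising growth factor genes numbered 0 without water replicate 1 or 3 and 2 without antibody replicate 7. Rising tight junction genes numbered 0 without water replicate 1 or 3 or antibody replicate 7, 1 without antibody replicate 1 and 2 without antibody replicate 3. Of these genes 1 fell without water replicate 1 or antibody replicate 4. When 1 library was left out, 2 to 7 antimicrobial genes rose, with 2 without water replicate 3, and 1 to 14 small proline-rich and stress keratin genes, with 1 without water replicate 3 and 14 without antibody replicate 4. Of 17 antimicrobial, acute-phase, stress, growth factor and junction genes named as called, Lcn2, Slpi, Wfdc21, Krt17 and Egf kept the call in every such fit. Slpi was not called with the 2 compared groups fitted alone. Calls were lost without water replicate 1 for Saa3, Pglyrp3, Krt6a, Tgfa, Hbegf, Nrg1, Areg and Gjb2 (adjusted p 0.06 to 0.132), without water replicate 2 for Saa3 (adjusted p = 0.0718) and without water replicate 3 for Saa3, Pglyrp3, Krt6a, Sprr2d, Sprr2e, Serpinb3a, Serpinb3b, Tgfa, Hbegf, Nrg1, Areg and Gjb2 (adjusted p 0.0633 to 0.161). Fits in which antibody replicate 1, 3 or 7 was left out did so for 1 or more of Areg, Hbegf and Gjb2 (adjusted p 0.051 to 0.0746).

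**Figure D4:**
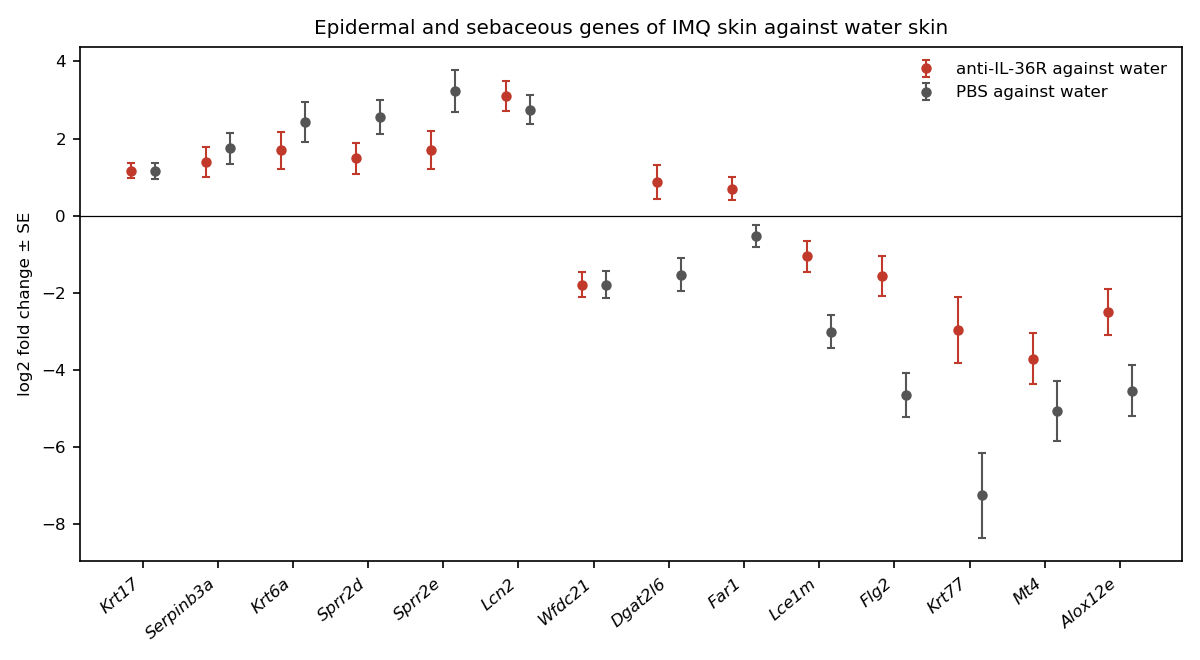
Log2 fold change ± SE (edgeR) of 14 epidermal and sebaceous genes against water skin, for IMQ skin with anti-IL-36R (red, left of each pair) and IMQ skin with PBS (grey, right). Krt17, Lcn2 and Wfdc21 lie side by side in both comparisons, while Flg2, Krt77 and Lce1m lie nearer to 0 under the antibody (-1.57, -2.98 and -1.06) than with PBS (-4.65, -7.26 and -3.01).

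Terminal differentiation genes were mostly not called against water skin under the antibody. Of 40 cornified envelope genes 0 rose and 2 fell (median -0.50), against 5 and 21 with PBS (median -0.92), and 5 were higher than with PBS. With the run term the median against water was 0.10, on the other side of 0, and of the 38 members not called 14 had intervals within 2-fold. Over all genes 5.93% rose and 7.12% fell, and the members' share was no higher. The counts moved with single libraries. Of the members 3 rose without water replicate 2. The falls numbered 0 without water replicate 3, 1 without water replicate 2 or antibody replicate 1, 2, 3, 4, 5 or 7 and 4 without water replicate 1. The median was -0.14 without water replicate 2. The direction of the calls also moved with the fit. By limma-voom 2 members rose and 0 fell, and by DESeq2 1 rose and 2 fell. With the 2 compared groups fitted alone 0 rose and 0 fell. Krt77, a type II keratin of differentiated epidermis, measured 1.94 to 86.2 CPM (median 31.2) under the antibody, 0.848 to 2.51 CPM (median 1.17) with PBS and 64.2, 136 and 482 CPM in water skin. The antibody median lay between those of the other groups. The lowest antibody library was within the PBS range and the highest was above the lowest water library, water replicate 1. It changed by -2.98 ± 0.858 (adjusted p = 0.026) against water and was higher than with PBS, by 4.28 ± 0.981 (adjusted p = 0.016). Flg2, a filaggrin-type protein of the cornified layer, measured 84.2 to 996 CPM (median 433), 25.3 to 123 CPM (median 40.6) and 448, 1380 and 2000 CPM in the antibody, PBS and water groups, with changes of -1.57 ± 0.522 (adjusted p = 0.0494) against water and 3.08 ± 0.493 (adjusted p = 0.00241) against PBS. Its call against water held in 3 of 16 alternative settings, and was lost with DESeq2 size factors in edgeR. The late envelope gene Lce1m was not called against water (-1.06 ± 0.406, adjusted p = 0.0841) but was higher than with PBS (1.95 ± 0.371, adjusted p = 0.00523). Mt4, the metallothionein of stratified squamous epithelium, fell, with 0 to 4.62 CPM (median 1.02), against 8.28, 24.4 and 21.9 CPM in water skin, without overlap (-3.71 ± 0.674, adjusted p = 0.00188).

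Genes for barrier lipids varied by enzyme. Of 26 ceramide and lipoxygenase genes 3 rose and 1 fell (5.93% and 7.12% of all genes), against 9 and 5 with PBS, and 19 of the 22 not called had intervals within 2-fold. The number that rose was 1 without water replicate 1 or 3 or antibody replicate 1, 6 or 7, 5 without antibody replicate 4 and 9 without water replicate 2. The sphingolipid desaturase Degs1 rose by 0.63 ± 0.138 (adjusted p = 0.0059) and the serine palmitoyltransferase subunits Sptlc3 and Sptlc2 by 0.62 ± 0.191 (adjusted p = 0.0373) and 0.42 ± 0.138 (adjusted p = 0.0485). The epidermal lipoxygenase Alox12e fell, with 4.41 to 74.7 CPM (median 35.9), against 121, 176 and 210 CPM in water skin. No antibody library reached the water level. Its change was -2.51 ± 0.602 (adjusted p = 0.0103), less far from 0 than -4.54 ± 0.673 (adjusted p = 0.000176) with PBS, a difference of 2.03 ± 0.572 (adjusted p = 0.0473). Of 12 keratinocyte identity genes, the desmosomal cadherin Dsg3 rose by 1.10 ± 0.237 (adjusted p = 0.0056), the basal integrin chain Itga6 by 0.49 ± 0.123 (adjusted p = 0.0124), and Krt15, a keratin of basal and bulge cells, changed by -1.47 ± 0.387 (adjusted p = 0.0166); Krt14 (0.75 ± 0.303, adjusted p = 0.0985) and Krt5 (0.31 ± 0.151, adjusted p = 0.166) were not called. Of the 10 barrier genes called, Mt4, Alox12e, Degs1 and Dsg3 kept their call without any 1 library. It was lost without water replicate 1 for Sptlc2, Sptlc3 and Itga6 (adjusted p 0.0757 to 0.199), without water replicate 2 for Flg2 (adjusted p = 0.103) and without water replicate 3 for Krt77, Flg2, Sptlc2, Sptlc3, Itga6 and Krt15 (adjusted p 0.0621 to 0.276). Fits from which antibody replicate 1, 2, 3, 4, 5, 6 or 7 was left out did so for 1 or more of Flg2, Sptlc2 and Sptlc3 (adjusted p 0.0557 to 0.0902).

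Of 24 tested cholesterol synthesis genes 12 rose and 0 fell (median 0.45), against 9 and 1 with PBS (median 0.34), and 4 were higher than with PBS. Cyp51, lanosterol demethylase (Entrez gene ID 13121, chromosome 5, 4080674 to 4104697), measured 311 to 453 CPM (median 357), against 217, 242 and 230 CPM in water skin, without overlap, and rose by 0.70 ± 0.133 (adjusted p = 0.00246). Idi1, isopentenyl diphosphate isomerase, measured 321 to 493 CPM (median 401) under the antibody, 240 to 406 CPM (median 301) with PBS and 225, 218 and 285 CPM in water skin. All 7 antibody libraries exceeded all 3 water libraries. It rose by 0.80 ± 0.18 (adjusted p = 0.00742), and was not called with PBS (0.35 ± 0.18, adjusted p = 0.134); between antibody and PBS skin the difference was 0.45 ± 0.14 (adjusted p = 0.0723). The sterol desaturase Sc5d (0.77 ± 0.157, adjusted p = 0.00401), squalene synthase Fdft1 (0.59 ± 0.151, adjusted p = 0.0141), the ketosteroid reductase Hsd17b7 (0.79 ± 0.202, adjusted p = 0.0144) and squalene epoxidase Sqle (0.58 ± 0.149, adjusted p = 0.0147) also rose, each without overlap. List scores exceeded all water libraries in each antibody library (0.19 to 0.55 above the water mean), and the median was 0.49 with the run term. Single omissions gave 2 to 13 rising members, with 2 without water replicate 1 and 7 without water replicate 3.

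The CCAAT box is one of the elements known from sterol-regulated promoters, and 4 of these promoters are shown for that reason; capitals mark CCAAT or its complement ATTGG in the 120 bases before the RefSeq start (GRCm38.p6), written in the direction of the gene.
Cyp51, chr5:4104698-4104817 (minus strand): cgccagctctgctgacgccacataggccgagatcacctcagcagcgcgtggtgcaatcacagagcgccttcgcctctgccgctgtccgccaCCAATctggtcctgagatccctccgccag
Sc5d, chr9:42264301-42264420 (minus strand): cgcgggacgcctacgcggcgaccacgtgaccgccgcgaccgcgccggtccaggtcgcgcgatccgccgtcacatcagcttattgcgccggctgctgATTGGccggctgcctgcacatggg
Idi1, chr13:8885486-8885605 (plus strand): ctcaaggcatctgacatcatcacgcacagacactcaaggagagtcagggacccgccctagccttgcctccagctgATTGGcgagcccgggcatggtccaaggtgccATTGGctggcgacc
Hsd17b7, chr1:169969206-169969325 (minus strand): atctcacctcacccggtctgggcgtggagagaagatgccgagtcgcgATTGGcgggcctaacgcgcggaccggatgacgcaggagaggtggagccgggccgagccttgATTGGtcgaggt

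On either strand within 250 bases before the start, CCAAT was found in 16 of the 16 cholesterol genes with an entry, 7 of them called higher, against 10133 of 27025 genes (37.5%). With so short a word a match is frequent and says nothing of a bound factor. Sebaceous and fatty acid genes showed another pattern: 1 of 27 rose and 0 fell against water (median -0.19), while with PBS 1 rose and 14 fell (median -1.02), and 15 were higher under the antibody than with PBS. The median was 0.13, on the other side of 0, without water replicate 3. The desaturase Scd2 was the one that rose, with 533 to 1250 CPM (median 805), against 525, 398 and 337 CPM in water skin (1.01 ± 0.232, adjusted p = 0.00818). Dgat2l6, an acyltransferase gene, measured 17.2 to 53.5 CPM (median 32.3), 2.38 to 11.2 CPM (median 5.61) and 9.53, 11 and 30.3 CPM in antibody, PBS and water skin. The antibody range held the highest water library and did not reach the PBS range, while PBS libraries overlapped the other water libraries. It was not called against water (0.88 ± 0.437, adjusted p = 0.181) and was 2.41 ± 0.371 (adjusted p = 0.00198) above PBS; for the fatty acyl reductase Far1 the values were 0.70 ± 0.29 (adjusted p = 0.106) and 1.23 ± 0.232 (adjusted p = 0.00503). Cyp2g1, a cytochrome P450, was among the largest falls, at 8.81 to 88.8 CPM (median 30.9) against 28.1, 169 and 511 CPM in water skin, with overlap (-2.73 ± 0.761, adjusted p = 0.0223).

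Of 20 eicosanoid genes 3 rose and 2 fell. With a library left out, 1 rose without water replicate 1 or 3, and 1 fell without water replicate 1. Prostaglandin D synthase Ptgds fell, with 0.285 to 1.27 CPM (median 0.972), against 6.37, 4.57 and 1.97 CPM in water skin, and the lipoxygenase Alox15 fell, with 0.682 to 3.17 CPM (median 1.08) against 4.69, 3.57 and 3.77 CPM. Neither overlapped water. Their changes were -2.23 ± 0.427 (adjusted p = 0.00267) and -1.48 ± 0.364 (adjusted p = 0.0114), while the prostaglandin-degrading enzyme Hpgd rose by 0.72 ± 0.177 (adjusted p = 0.0117); the phospholipase Pla2g4a (0.33 ± 0.0872, adjusted p = 0.0158) and Alox5ap, the lipoxygenase-activating protein (0.86 ± 0.274, adjusted p = 0.0416), rose too. Ptgs2, inducible cyclooxygenase, was not called (2.73 ± 0.982, adjusted p = 0.0667) at 0.913 to 32.8 CPM (median 2.99) against 0.981, 1.65 and 1.18 CPM. Of 11 lipid genes named as changed and tracked across the omissions, Scd2, Cyp51, Sc5d and Ptgds kept the call in each. The calls of the others ended without water replicate 1 for Idi1, Fdft1, Hsd17b7, Sqle and Alox15 (adjusted p 0.0503 to 0.0883) and without water replicate 3 for Fdft1, Hsd17b7, Sqle, Cyp2g1 and Hpgd (adjusted p 0.0592 to 0.3).

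**Figure D5:**
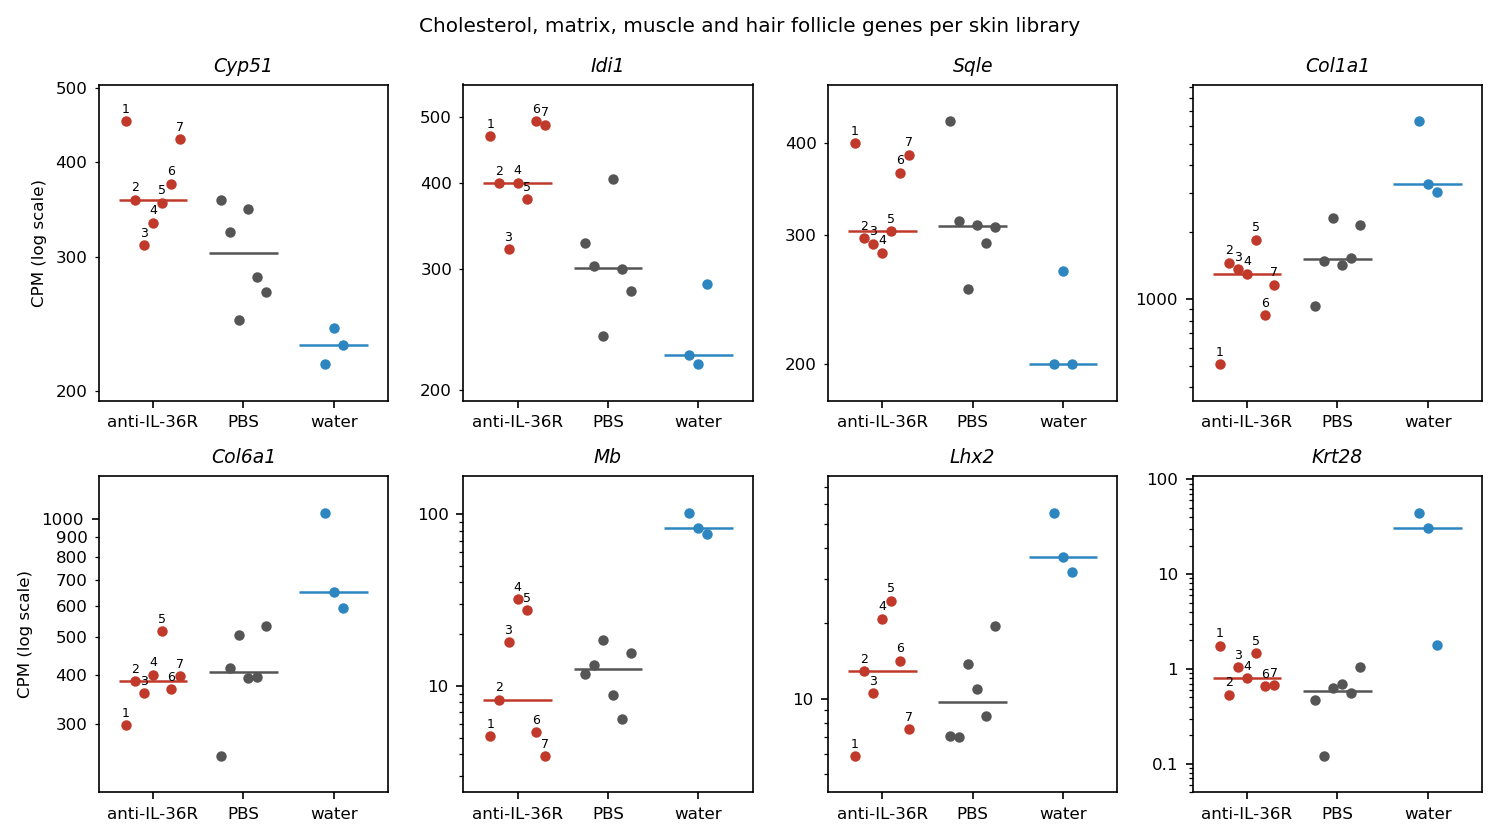
CPM on a log axis for 8 genes in each library of IMQ skin with anti-IL-36R (red, replicate numbers printed), IMQ skin with PBS (grey) and water skin (blue), with lines at group medians. Cyp51, Idi1 and Sqle are higher and Col1a1, Col6a1, Mb and Lhx2 lower in every antibody library than in any water library; Krt28 is near 1.8 CPM in water replicate 3, against 44.7 and 30.6 CPM in the other water libraries.

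Of 18 tested fibroblast matrix genes 11 fell and 0 rose (median -0.86), where 7.12% of all genes fell, against 13 with PBS (median -0.91), and edgeR called 0 between the antibody and PBS groups (0 at an unadjusted p under 0.05). Col1a1, the main chain of collagen I (Entrez gene ID 12842, chromosome 11, 94936224 to 94953042), measured 508 to 1850 CPM (median 1300) under the antibody, 930 to 2320 CPM (median 1510) with PBS and 6330, 3310 and 3040 CPM in water skin. Antibody and PBS libraries overlapped each other and neither reached water. It changed by -1.80 ± 0.315 (adjusted p = 0.00147), and by -1.36 ± 0.329 (adjusted p = 0.00405) with PBS. Its partner chain Col1a2 changed by -1.68 ± 0.262 (adjusted p = 0.000696), the collagen VI chains Col6a2 and Col6a1 by -1.05 ± 0.192 (adjusted p = 0.0019) and -0.97 ± 0.189 (adjusted p = 0.00305), Col5a1 by -1.25 ± 0.273 (adjusted p = 0.00603) and the collagen-binding glycoprotein Sparc by -1.09 ± 0.213 (adjusted p = 0.00317); all were below water in every antibody library. Lrrc15, a leucine-rich repeat protein of matrix-producing fibroblasts, stood at 7.17 to 29.4 CPM (median 11.9), against 166, 102 and 26.9 CPM in water skin (-2.71 ± 0.45, adjusted p = 0.00105), where water replicate 3 lay within the antibody range. Of 20 matrix remodelling genes 4 rose and 2 fell, against 12 and 3 with PBS.

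Fibronectin Fn1 (-1.13 ± 0.208, adjusted p = 0.00205) and periostin Postn (-1.10 ± 0.243, adjusted p = 0.00678) were the 2 that fell. Tenascin Tnc rose, with 328 to 1290 CPM (median 770), against 372, 202 and 156 CPM in water skin, with overlap (1.65 ± 0.38, adjusted p = 0.0085). The protease Mmp19 rose by 1.27 ± 0.286 (adjusted p = 0.00735), and the protease inhibitor Timp1 by 1.46 ± 0.468 (adjusted p = 0.0421). Of 15 endothelial genes 3 rose, against 9 with PBS: Pecam1 rose by 0.58 ± 0.146 (adjusted p = 0.0126), the leukocyte adhesion molecules Sele and Icam1 by 1.12 ± 0.326 (adjusted p = 0.0272) and 0.53 ± 0.165 (adjusted p = 0.0372). Rising endothelial genes numbered 0 without water replicate 2, 1 without water replicate 1 or antibody replicate 7 and 5 without water replicate 3. Of the matrix remodelling genes 2 rose without water replicate 1 or 3, and 1 fell without water replicate 1. The fibroblast median was -1.11 with the run term, and single omissions gave 4 to 12 falling members, with 4 without water replicate 1. Of the 15 matrix and vessel genes called, 8 kept the call throughout (Col1a1, Col1a2, Col6a2, Sparc, Fn1, Tnc, Mmp19 and Lrrc15). Calls were lost without water replicate 1 for Col6a1, Col5a1, Postn, Timp1, Sele and Icam1 (adjusted p 0.0522 to 0.146), without water replicate 2 for Timp1, Pecam1, Sele and Icam1 (adjusted p 0.0623 to 0.146) and without water replicate 3 for Timp1 (adjusted p = 0.106). Fits in which antibody replicate 1, 3, 6 or 7 was left out did so for 1 or more of Icam1, Timp1 and Sele (adjusted p 0.0519 to 0.0824).

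Some skeletal muscle, pigment cell and hair follicle genes fell, where 7.12% of all genes fell under the antibody and 17.4% with PBS. Of 18 muscle markers 8 fell and 0 rose (median -1.18), against 4 with PBS (median -1.08). Myoglobin Mb measured 3.91 to 31.8 CPM (median 8.3), against 102, 83 and 76.8 CPM in water skin, without overlap (-2.62 ± 0.478, adjusted p = 0.0019), and PBS skin stood -2.81 from water. The contractile genes Tnnt1 (-2.30 ± 0.411, adjusted p = 0.00164), Myh2 (-2.17 ± 0.466, adjusted p = 0.00558) and Myh1 (-1.52 ± 0.414, adjusted p = 0.02) fell with it; some reads of the myosins were shared. The summed muscle markers spanned 1040 to 4170 CPM under the antibody, 1630 to 4520 with PBS and 4370 to 9300 in water skin, so muscle RNA moved with the groups; its part in the other results was not tested. Adipocyte markers gave 2 falls of 14, leptin Lep (-1.52 ± 0.489, adjusted p = 0.0427) and Car3 (-1.0 ± 0.327, adjusted p = 0.0473). Adipocyte falls numbered 0 without water replicate 1, 2 or 3 or antibody replicate 1, 2, 3, 6 or 7. Of 8 melanocyte genes 6 fell (median -2.02), against 2 with PBS (median -1.28). The pigment enzymes Dct (-1.99 ± 0.467, adjusted p = 0.00935) and Tyr (-2.14 ± 0.545, adjusted p = 0.0138) and the melanosome protein Pmel (-2.16 ± 0.542, adjusted p = 0.0131) are examples. Dct measured 4.48 to 24.4 CPM (median 12.9), against 76.4, 48.2 and 26.6 CPM in water skin, where replicate 3 was the lowest and close to the highest antibody library. It was the 1 gene of the 8 without overlap. Pmel and Tyr reached 14.4 and 2.8 CPM under the antibody, above the 9.13 and 2.48 CPM of water replicate 3.

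Of 20 hair follicle genes 7 fell (median -1.93), against 10 with PBS (median -2.54), and in anti-IL-12p40 skin edgeR called 0 against water, with 4 at an unadjusted p under 0.05 (median 0.06). In that group replicate 2 stood apart, with 63.2, 40.3 and 28.6 CPM of the keratins Krt73, Krt28 and Krt35. Its other libraries held 0.418 to 3.89, 0.353 to 3.41 and 0 to 1.99 CPM. The part of replicate 2 in the count and median of that group was not tested. Krt28, an inner root sheath keratin (Entrez gene ID 70843, chromosome 11, 99365007 to 99374903), measured 0.534 to 1.76 CPM (median 0.799), against 44.7, 30.6 and 1.8 CPM in water skin. Water replicates 1 and 2 were far above, and water replicate 3 lay just above the highest antibody library. Its change was -4.69 ± 1.04 (adjusted p = 0.00678); those of the root sheath and hair keratins Krt73 and Krt35 were -5.26 ± 1.22 (adjusted p = 0.00861) and -4.91 ± 1.31 (adjusted p = 0.0183), and for both water replicate 3 lay within the antibody range. The follicle transcription factors Lhx2 and Hoxc13 changed by -1.59 ± 0.403 (adjusted p = 0.0135) and -1.39 ± 0.394 (adjusted p = 0.0242), without overlap, with 5.91 to 24.6 CPM (median 12.9) against 55.4, 36.9 and 32.2 CPM for Lhx2. The largest falls also held Prss35, a serine protease-like gene (-3.55 ± 0.597, adjusted p = 0.00115), and Golga7b (-3.37 ± 0.625, adjusted p = 0.00208), with water replicate 3 at 1.75 and 1.92 CPM, against 18 and 16.5 CPM in water replicate 1. With the run term the medians were -2.06 for hair follicle, -1.93 for melanocyte and -0.99 for muscle genes. With 1 library left out, the falling hair follicle genes numbered 1 without water replicate 1 and 4 without water replicate 2. The falling melanocyte genes numbered 0 without water replicate 1. The falling muscle genes numbered 3 without water replicate 1 or 3, 4 without antibody replicate 1 and 5 without antibody replicate 7. Calls of Mb, Tnnt1, Myh2, Krt28, Prss35 and Golga7b held in every omission. The other calls ended without water replicate 1 for Myh1, Dct, Pmel, Tyr, Krt73, Krt35, Lhx2, Hoxc13, Lep and Car3 (adjusted p 0.0538 to 0.142), without water replicate 2 for Hoxc13, Lep and Car3 (adjusted p 0.0551 to 0.0637) and without water replicate 3 for Myh1, Lep and Car3 (adjusted p 0.0662 to 0.148). Fits from which antibody replicate 1, 2, 3, 4, 6 or 7 was left out did so for 1 or more of Lep and Car3 (adjusted p 0.0502 to 0.0819).

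Of 18 dendritic and Langerhans cell markers 8 fell and 0 rose (median -0.79), against 15 with PBS (median -1.24), and 5 were higher under the antibody than with PBS. Over all genes 7.12% fell under the antibody and 17.4% with PBS. Cd209a, the DC-SIGN-like lectin of monocyte-derived and dermal dendritic cells (Entrez gene ID 170786, chromosome 8, 3743395 to 3748984), measured 0.0597 to 3.31 CPM (median 1.25) under the antibody, 0 to 2.86 CPM (median 0.892) with PBS and 14.1, 11.2 and 34.8 CPM in water skin. All antibody libraries were below water. It changed by -3.80 ± 0.723 (adjusted p = 0.00263), its relative Cd209e by -2.76 ± 0.491 (adjusted p = 0.00164), and Xcr1, the receptor of cross-presenting dendritic cells, by -1.82 ± 0.324 (adjusted p = 0.00164). The growth factor receptor Flt3 fell, with 2.87 to 5.22 CPM (median 2.92), against 7.19, 5.82 and 12.5 CPM in water skin (-1.25 ± 0.252, adjusted p = 0.00369), and was 1.04 ± 0.231 (adjusted p = 0.0134) above PBS. The lectin Mgl2 (-1.92 ± 0.395, adjusted p = 0.00432), the plasmacytoid marker Siglech (-1.39 ± 0.367, adjusted p = 0.0173) and the integrin chain Itgae (-0.95 ± 0.255, adjusted p = 0.0184) fell as well. The score lay below all water libraries in each antibody library, the median was -0.77 with the run term, and omissions gave 3 to 11 falling members, with 3 without water replicate 3.

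Of 19 T and NK cell genes 3 rose and 4 fell, against 2 and 10 with PBS. Of them, 1 rose without water replicate 2. Falls among them numbered 0 without water replicate 3, 1 without water replicate 2 and 2 without water replicate 1 or antibody replicate 1. Gzma, granzyme A of cytotoxic cells (Entrez gene ID 14938, chromosome 13, 113093824 to 113100981), measured 2.44 to 9.36 CPM (median 6.55) under the antibody, 2.78 to 5.66 CPM (median 3.28) with PBS and 0.109, 0.132 and 0.394 CPM in water skin. Every antibody library lay above water without overlap. It rose by 4.80 ± 0.625 (adjusted p = 0.000272), and by 4.07 ± 0.631 (adjusted p = 0.000222) with PBS, and it was called under each of the 16 alternative settings, as was Cd300e; no other of the 163 genes followed across the settings was. The granzyme Gzmb (1.37 ± 0.397, adjusted p = 0.0264) and the NK receptor Ncr1 (1.73 ± 0.461, adjusted p = 0.0179) rose. Cd3e, a T-cell receptor chain, fell, with 1.48 to 4.33 CPM (median 3.86), against 4.69, 6.68 and 9.63 CPM in water skin (-0.98 ± 0.288, adjusted p = 0.0286), with the T-cell antigen Cd5 (-0.48 ± 0.141, adjusted p = 0.0303) and Foxp3, the regulatory T-cell factor (-1.24 ± 0.288, adjusted p = 0.00874). For all 3, antibody libraries were below water without overlap. Besides Fcrl5, the B-cell receptor chain Cd79b rose, with 1.99 to 3.14 CPM (median 2.67) against 0.708, 0.529 and 0.901 CPM (1.86 ± 0.376, adjusted p = 0.00387), while Jchain (-0.34 ± 0.685, adjusted p = 0.773) was not called. Of 10 mast cell markers the growth factor receptor Kit, also made by melanocytes, fell (-0.79 ± 0.179, adjusted p = 0.00742), and Cpa3 (-0.18 ± 0.225, adjusted p = 0.616) and Tpsb2 (0.40 ± 0.315, adjusted p = 0.407) were not called. Calls of Xcr1, Cd209a, Cd209e, Gzma and Cd79b held without any 1 library. Those of the rest ended without water replicate 1 for Siglech, Gzmb, Cd5 and Kit (adjusted p 0.0793 to 0.0938), without water replicate 2 for Ncr1, Gzmb, Cd3e and Cd5 (adjusted p 0.0567 to 0.112) and without water replicate 3 for Flt3, Mgl2, Itgae, Ncr1, Gzmb, Foxp3, Cd3e and Cd5 (adjusted p 0.0509 to 0.215). Fits from which antibody replicate 1 was left out did so for Cd5 (adjusted p = 0.0562).

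Few cell cycle and respiratory chain genes were called. Of 30 cell cycle genes 2 rose, the replication helicase subunits Mcm4 (0.43 ± 0.127, adjusted p = 0.031) and Mcm3 (0.39 ± 0.128, adjusted p = 0.0492), and the other 28 all had intervals within 2-fold; with PBS 8 rose. That share was near the 5.93% of all genes, and it moved with single libraries. Rises numbered 0 without water replicate 2 or 3 or antibody replicate 1, 3 or 7, 1 without antibody replicate 5 and 4 without antibody replicate 4 or 6. Falls numbered 3 without water replicate 3, where the median turned to -0.20 (with all libraries 0.00). Of 21 respiratory chain genes 1 rose, where 5.93% of all genes rose: cytochrome c Cycs (0.34 ± 0.0823, adjusted p = 0.0111). Of the 20 others, 17 had intervals within 2-fold. Of 17 circadian genes 1 rose and 1 fell, shares near the 5.93% and 7.12% of all genes. Bhlhe40 rose by 1.19 ± 0.267 (adjusted p = 0.0072). Hlf fell, with 4.08 to 10.8 CPM (median 5.96), against 13.3, 15.3 and 11.6 CPM in water skin (-1.09 ± 0.2, adjusted p = 0.0019). Both were without overlap. Smooth muscle (9 tested) and Schwann cell (10 tested) markers had 0 calls by edgeR (2 and 0 at an unadjusted p under 0.05; 1 and 0 by DESeq2; 0 of each by limma); 5 and 9 of them had intervals within 2-fold. Miat, a long noncoding RNA, was among the largest falls, with 1.19 to 6.11 CPM (median 2.75) against 32.1, 18.4 and 8.85 CPM in water skin (-2.71 ± 0.378, adjusted p = 0.000411). Calls of Miat, Hlf and Bhlhe40 held in every omission. The calls of the others ended without water replicate 2 for Mcm3 and Mcm4 (adjusted p 0.0531 to 0.0882) and without water replicate 3 for Mcm3 and Mcm4 (adjusted p 0.219 to 0.307). Fits from which antibody replicate 1, 2, 3, 5 or 7 was left out did so for 1 or more of Mcm3 and Mcm4 (adjusted p 0.0501 to 0.0921).

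Set directly against anti-IL-12p40 skin, a group from a number run of its own, the anti-IL-36R libraries differed in 7 genes (0.0456%), 2 higher (0.013%) and 5 lower (0.0326%), with 806 at an unadjusted p under 0.05. Besides Il17f, described above, they were Krt13, a keratin of mucosal epithelia (-2.16 ± 0.399, adjusted p = 0.0419), the translation regulator Gcn1 (-0.43 ± 0.072, adjusted p = 0.0182), the RNA-binding protein gene Igf2bp3 (-6.12 ± 0.3, adjusted p = 1.53e-11) and the predicted or clone-named genes 5830411N06Rik, Gm5779 and 4930463O16Rik. These were named after their values were seen. Both antibody groups share the water libraries, so their values against water are given only side by side: for Lcn2 they were 3.10 ± 0.389 with anti-IL-36R and 2.36 ± 0.373 with anti-IL-12p40, for Adgre1 2.57 ± 0.4 and 2.33 ± 0.395, for Alox12e -2.51 ± 0.602 and -2.59 ± 0.602, and for Krt28 -4.69 ± 1.04 and -1.86 ± 0.942. For Krt28, anti-IL-12p40 replicate 2 held 40.3 CPM and the other 6 libraries of that group 0.353 to 3.41 CPM. The median of the macrophage markers was 1.01 and 0.97, of the neutrophil markers 2.11 and 2.16 and of the fibroblast genes -0.86 and -0.64.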

How the data were processed

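RNA was extracted from mouse skin with MagMAX reagents, mRNA was purified with Dynabeads and strand-specific ScriptSeq libraries were made, per the labels' protocols. The authors deposited RSEM expected counts per gene (mm10), per the submitters' processing notes; versions are not given in the sources used here. Of the skin values 16.71% were not whole, since RSEM divides reads that match several genes, and all were rounded. Gene symbols and promoters came from RefSeq (GRCm38.p6), which matched 24375 of 24475 gene IDs. edgeR 4.0.16 (R 4.3.3) fitted all 4 skin groups together, with TMM scaling, its expression filter, robust quasi-likelihood and Benjamini-Hochberg adjustment over 15345 genes; the common biological coefficient of variation was 0.201. CPM are expected counts scaled to a common, TMM-adjusted library size. Scores are mean log2 CPM (prior count 2). The script was tested on simulated data. No 2 libraries of a group agreed within sampling noise. Alternatives were DESeq2 1.42.0, limma 3.58.1, no filter, the 2 groups alone, the sample number run and leaving out each library; the values of PBS replicates 4 to 6 against 1 to 3 and the sizes and SE in the run-term fit were added after seeing the data. Figures used Python 3.11.15 and matplotlib 3.10.9. Named genes were the 12 largest rises and falls (2-fold or more, mean log2 CPM of 1 or more; predicted, pseudo- and sex-linked genes left out), up to 6 per list by p, and all members of the interleukin-36, interleukin-17 and neutrophil chemokine lists with Il1b, Tnf and Il6. A few list members are not reported here by name. The comparison and the lists were chosen with earlier results of these data known.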

Additional observations from a re-analysis of the deposited data

Results flagged for a closer look

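Among the 7 anti-IL-36R libraries, 29 of 163 genes and 4 of 37 list scores had 1 library so far from the nearest other that the gap exceeded Dixon's critical share of the group's range. For normally spread values chance flags about 1 in 20 groups. The genes were tested on CPM, not on a log scale, and are not independent of each other, so that rate need not hold for them. In 23 cases that library was replicate 7, as the highest. For neutrophil chemokines and related genes its values were S100a8 4870 CPM (next 2820), Cxcl1 33 CPM (next 9.72), Cxcl2 22 CPM (next 7.44), Cxcl3 7.82 CPM (next 2.16), Csf3 1.72 CPM (next 0.398) and Cxcl13 130 CPM (next 51.8). For cytokines they were Il1b 69 CPM (next 26.3), Il17f 9.02 CPM (next 2.45), Il17c 4.12 CPM (next 2.02), Il17a 2.03 CPM (next 0.583), Il22 3.39 CPM (next 0.455), Il23a 4.85 CPM (next 1.43), Il6 11.6 CPM (next 2.53) and Il19 36.2 CPM (next 10.4) and for Tnf 9.76 CPM (next 5.26). For epidermal, growth factor and other genes they were Sprr2e 393 CPM (next 161), Serpinb3b 264 CPM (next 182), Tgfa 182 CPM (next 116), Hbegf 179 CPM (next 81.5), Mmp19 80.7 CPM (next 47.4) and Egr1 417 CPM (next 224). The score of the interleukin-23 and interleukin-17 list was 0.86 above the water mean in replicate 7 (next 0.27), and that of the NF-kB and STAT3 feedback regulators 0.93 (next 0.53). Without this library 1414 genes were called against water, compared with 2003 with it.

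Replicate 4 was the highest for Mt4 4.62 CPM (next 1.54) and Hlf 10.8 CPM (next 6.57) and the lowest for Ptgds 0.285 CPM (next 0.852). Replicate 1 was the lowest for Cd3e 1.48 CPM (next 3.31) and for the T and NK cell score, at -0.65 against the water mean (next 0.08), and the highest for Krt73 1.93 CPM (next 0.778) and for the keratinocyte identity score, at 0.30 (next 0.06). Replicate 5 was the highest for Pmel 14.4 CPM (next 7.19) and Golga7b 2.42 CPM (next 0.97), and replicate 6 for Alox15 3.17 CPM (next 1.67).

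Il17f was taken up because its difference from water differed between both antibody groups by a direct test: 2.65 ± 0.448 (adjusted p = 0.0182) in edgeR, anti-IL-36R minus anti-IL-12p40. Anti-IL-36R skin held 1.21 to 9.02 CPM (median 2.15), anti-IL-12p40 skin averaged 0.462 ± 0.255 CPM (SD, 7 libraries) and water skin held 0.49, 0.397 and 0.338 CPM.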

How the results depend on the processing

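Of 141 called genes followed through 16 alternatives, Cd300e and Gzma were called in every one. The count of 2003 calls, 910 higher and 1093 lower, was 2005 with DESeq2 size factors in edgeR, 1782 without a filter on low counts, 2678 by the DESeq2 Wald test and 1379 by limma-voom, where 567 were higher. With the 2 compared groups fitted alone it was 1174 (459 higher and 715 lower), and with the sample number run as a term 3 (3 higher and 0 lower; 2467 at an unadjusted p under 0.05). Leaving out 1 library gave 698 to 2591 calls, 300 to 1262 higher and 398 to 1329 lower; the count was 698 without water replicate 1 and 1248 without water replicate 3. The cause was not tested; in the run-term fit the median SE of the called genes was 0.298, against 0.188 without the term. List counts moved with the fit too. Of the neutrophil markers 8 rose in edgeR, 12 by DESeq2, 3 by limma-voom and 5 with the 2 groups alone. In the same order, neutrophil chemokine genes gave 3, 7, 0 and 0, growth factor genes 4, 4, 0 and 0. Tight junction genes gave 4, 5, 0 and 0, stress keratin list genes 7, 15, 4 and 2. Macrophage markers gave 11, 13, 11 and 12. Signs turned in 3 genes that were not called. Il1f5 (0.01) was -0.01 with the 2 groups alone and -0.19 (without water replicate 3) to 0.42 (without water replicate 2) over all omissions; Il1f9 (-0.05) was 0.04 by limma-voom and -0.23 (without water replicate 1) to 0.16 (without water replicate 3) over all omissions; Il22 (2.21) was -0.17 by limma-voom. Over the single genes, 2079 results under an alternative kept direction and side of the threshold, 498 lost the call, 17 gained one and 10 turned. No paired analysis was possible because the labels give the libraries of these groups no shared replicate numbers. At 14946321 to 19574785 counts per library, Il1f8, Ly6g and Mpo had too few counts to test. Il1f6 had 0 counts in the antibody, PBS and water libraries, for a reason that was not tested.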

Other observations

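Of the immediate-early genes, transcription factors that cells switch on soon after a stimulus, 6 that were called higher in anti-IL-36R than in water skin are given here. They were named after their values were seen, and no list of such genes was tested. Fos measured 16 to 225 CPM (median 35.2) under the antibody, against 11, 9.33 and 8.96 CPM in water skin, a change of 2.90 ± 0.768 (adjusted p = 0.0173). Egr1 measured 99.4 to 417 CPM (median 133) against 69.1, 73.7 and 51 CPM (1.54 ± 0.452, adjusted p = 0.0292). Neither overlapped water. Fosb (2.38 ± 0.703, adjusted p = 0.0295), Nr4a1 (1.66 ± 0.522, adjusted p = 0.0392), Junb (1.05 ± 0.283, adjusted p = 0.0184) and Atf3 (1.28 ± 0.342, adjusted p = 0.0183) rose too. In PBS skin the changes against the same water libraries were 2.53 ± 0.762 (adjusted p = 0.0155) for Fos and 1.09 ± 0.449 (adjusted p = 0.066) for Egr1. The call was lost without water replicate 3 for Fos, Fosb, Junb, Egr1 and Nr4a1 (adjusted p 0.065 to 0.115), without water replicate 2 for Fos, Fosb, Egr1, Nr4a1 and Atf3 (adjusted p 0.0508 to 0.096), without water replicate 1 for all 6 (adjusted p 0.07 to 0.139), without antibody replicate 7 for Fosb, Egr1 and Nr4a1 (adjusted p 0.0518 to 0.0757), without antibody replicate 6 for Nr4a1 (adjusted p = 0.0563) and without antibody replicate 3 for Nr4a1 (adjusted p = 0.0526).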
